A study of Mus musculus with 48 samples.

Results

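The genes described here make cholesterol and control its level in the cell. They are 28 genes chosen by name as a pathway, with earlier results of these data known, out of 55450 genes in each table of counts. They comprise 4 regulators, 18 enzymes of synthesis in pathway order, and 6 genes of sterol transport, storage and efflux. All 28 were found in both tables and passed the filter on low counts in every comparison. RNA was sequenced from mouse cells of C57BL/6 background, either wild type (WT) or lacking HMGN1 and HMGN2 (Hmgn1-/- and Hmgn2-/-, called DKO), which are small proteins that bind nucleosomes. Preadipocytes from inguinal white fat of adult mice of both genotypes were induced towards brown-like adipocytes and sampled at days 0, 3, 6 and 9. Mouse embryonic fibroblasts (MEFs) of both genotypes were induced to become adipocytes and sampled at days 0, 4, 8 and 12.

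The cells of day 0 were taken before induction, and all later groups of 1 cell type received the same agents: insulin at 0.5 µg/ml, dexamethasone at 5 µM, IBMX at 0.5 mM, the thyroid hormone T3 at 1 nM and rosiglitazone at 1 µM. Preadipocytes stayed in this medium for 4 days and MEFs for 8 days, each followed by 4 days of insulin and T3 alone. Each of the 16 groups held 3 libraries, 48 in all, which the study calls biological replicates. The labels do not say whether the 3 came from separate animals, so p-values measure the spread between these libraries. The deletion is carried by the whole animal. The study worked with male mice, and the labels give no sex for the cultures.

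Cells make cholesterol from acetyl-CoA through mevalonate, farnesyl pyrophosphate, squalene and lanosterol. The transcription factor SREBP2, the product of Srebf2, switches on most of these enzymes once its escort Scap carries it out of the endoplasmic reticulum, and the Insig proteins hold Scap back when sterol is plentiful. Surplus sterol is stored as ester or pumped out by ABC transporters whose genes answer to the liver X receptors. Fat cells are a large store of free cholesterol, held at the surface of their lipid droplets and in their membranes.

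Several facts about the libraries stand beside every value below. Libraries held 19809397 to 36006696 counts in preadipocytes and 18962483 to 33083213 in MEFs, and levels are given as CPM, counts scaled to the size of the library. The member with the fewest counts was Abcg1, at 89 in 1 preadipocyte library. Hmgn2 was at 10 counts or fewer in each DKO library against 744 to 6069 counts in WT libraries. Hmgn1 stayed at 1571 to 3493 counts in DKO libraries, and whether those reads lay in deleted exons was not tested. A gene was called when its fold change was at least 1.5 at a Benjamini-Hochberg adjusted p under 0.05 in edgeR's quasi-likelihood test over all genes.

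In MEFs, 4 libraries correlated better with another day of their genotype than with their own. They were WT day 4 replicate 1 and DKO day 4 replicate 3, both nearer to day 8, and WT day 8 replicate 2 and DKO day 8 replicate 3, both nearer to day 4. The members showed this directly: the summed level of the 18 enzymes was 1306, 638 and 619 CPM in the 3 WT libraries of day 4 and 1636, 725 and 1598 CPM in those of day 8. In DKO MEFs of day 0, replicate 2 also stood low, with 337 CPM against 761 and 872 CPM for the same sum. Steps between days and comparisons of genotypes that involve days 4 and 8 in MEFs are therefore given with and without those 4 libraries. This choice was made after seeing the data. The libraries were left out for their likeness to the other day, so more and larger differences between days 4 and 8 are built into the values without them, which are given as a description. In preadipocytes each library was nearest to its own day.

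Over the whole course of induction, members were called in both directions in WT preadipocytes and mostly higher in WT MEFs. In preadipocytes at day 9 against day 0, 11 of 28 members were called higher and 7 lower, where 25.2% of all genes were called higher and 26.5% lower, so the share of members called lower, 7 of 28, was near that of all genes. In MEFs at day 12 against day 0, 16 members were called higher and 2 lower, where 13.4% of all genes were called higher and 10.6% lower. The median log2 fold change of the members was 0.05 in preadipocytes beside -0.02 for all genes, and 0.95 in MEFs beside 0.00387 for all genes. In DKO cells the same comparisons called 11 higher and 7 lower in preadipocytes, beside 27% and 29.5% of all genes. In DKO MEFs 21 members were called higher and 1 lower, beside 15.5% and 12.8% of all genes, and with library size as the only scaling the split was 16 and 3. Days and length of the medium differed between the cell types, and fewer cells of a type cannot be told apart from less RNA per cell in such bulk samples.

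**Figure D1:**
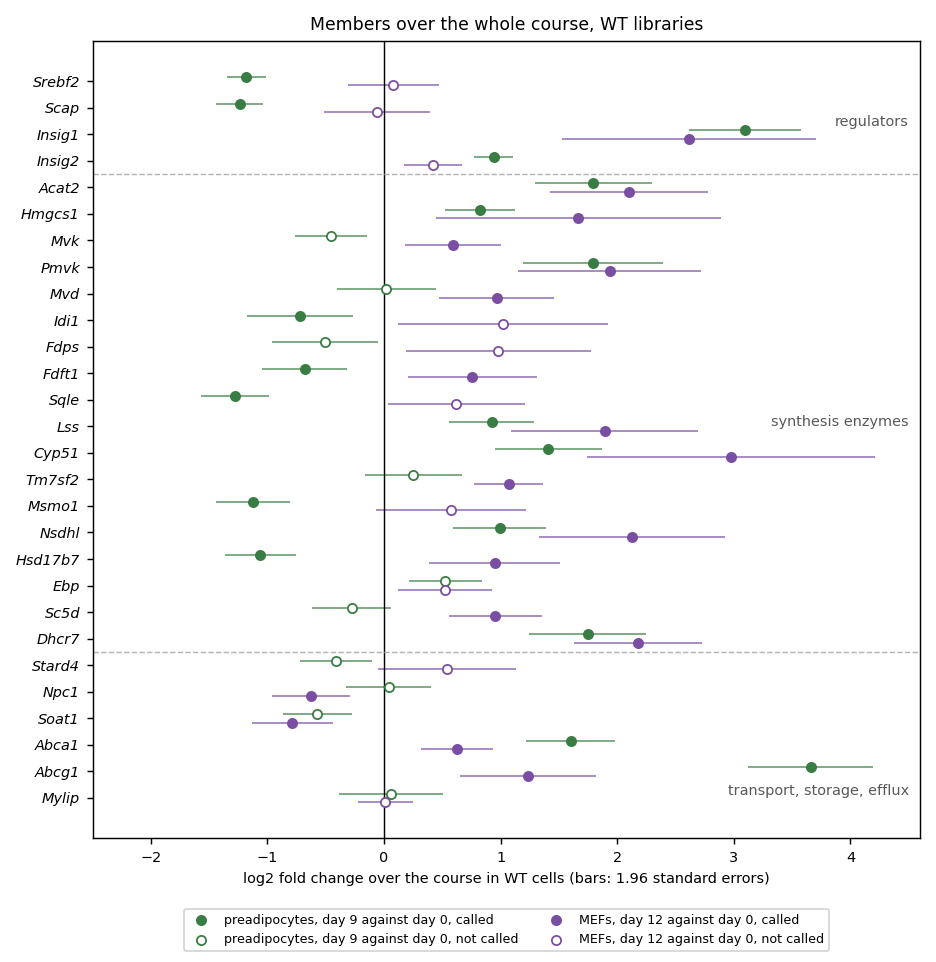
Log2 fold change over the whole course in WT cells (x axis) for each of the 28 members (y axis, by role), with green points for preadipocytes at day 9 against day 0, purple points for MEFs at day 12 against day 0, filled points for called genes and bars spanning 95% intervals. All 18 enzymes lie above 0 in MEFs, while in preadipocytes 7 enzymes are called higher and 5 lower.

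Among the regulators, the brake rose and the activator fell in preadipocytes. Insig1, which retains Scap in the endoplasmic reticulum, was at 62.3, 61.4 and 73.1 CPM in WT preadipocytes of day 0, at 60.0, 82.4 and 84.1 CPM at day 3, at 339, 456 and 352 CPM at day 6 and at 530, 592 and 561 CPM at day 9. Every library of days 6 and 9 lay above every library of days 0 and 3, and the log2 fold change over the course was 3.10 (SE 0.244, adjusted p 1.83e-09). Insig2, its close relative, rose by 0.94 on the log2 scale (SE 0.0854), from 39.8 to 41.3 CPM at day 0 to 76.0 to 78.9 CPM at day 9.

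Srebf2 itself was at 154, 168 and 170 CPM at day 0 and at 74.6, 68.5 and 73.8 CPM at day 9 in WT preadipocytes. The groups did not overlap, and Srebf2 was 2.27-fold lower at day 9 (SE 0.0865 on the log2 scale, adjusted p 5.08e-10). Scap, the escort of SREBP2, was at 101, 110 and 118 CPM at day 0, at 143, 153 and 167 CPM at day 3 and at 48.8, 42.7 and 48 CPM at day 9. The value of day 3 against day 0, 0.49, was under the fold threshold, and the course value was -1.24 (SE 0.103, adjusted p 2.95e-09).

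In WT MEFs, Insig1 alone of the 4 regulators was called over the course, at a log2 fold change of 2.62 (SE 0.555, adjusted p 0.00112), from 41.5 to 44.1 CPM at day 0 to 255 to 267 CPM at day 12. Srebf2 was at 123 to 136 CPM at day 0 and 133 to 138 CPM at day 12, and the fit gave 0.08 (SE 0.2). Scap was at 76.4 to 81.3 CPM at day 0 and 74.1 to 77.8 CPM at day 12, and the fit gave -0.06 (SE 0.231). The difference between the cell types' courses, tested in 1 fit over the 48 libraries, was -1.27 for Srebf2 (SE 0.218, adjusted p 1.71e-05) and -1.19 for Scap (SE 0.263, adjusted p 0.000457).

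Regulatory sequence can be set beside these values. RefSeq entries of GRCm38.p6, covering 250 bases before and 50 after each start, were matched to 22 of the 28 members. No entry was matched to Fdps, Fdft1, Sqle, Stard4, Abcg1 and Npc1, whose promoters were not searched. The matched entries were searched on both strands for TCACNCCAC, the sterol-responsive element (GTGGNGTGA on the opposite strand), which was in 1.24% of all 32851 promoters. Among members only Hmgcs1 held it, 137 bases before the start, or 4.55% of the 22 beside 1.44% of all genes. The shorter TCACNCCA, which the longer one contains, was in 4.36% of promoters. It was in those of 4.97% of all genes and of 3 of the 22 members (13.6%), Hmgcs1, Srebf2 and Msmo1. CCAAT, the box bound by NF-Y, was in the promoters of 41.1% of all genes, of 19 of the 22 members (86.4%) and of 14 of 15 enzyme genes (93.3%). The searches for TCACNCCA and CCAAT were added after the promoters had been read, so the members' shares for them are given as a description. The promoters of the 3 genes that hold the shorter motif are printed 5′ to 3′ over the 250 bases before the start. These genes went in different directions in preadipocytes: Hmgcs1 was called higher over the course, and Srebf2 and Msmo1 lower. A link between the motif and the direction was not tested. Capitals mark the motif, in its longer form in Hmgcs1.
Srebf2, chr15:82147019-82147268, plus strand: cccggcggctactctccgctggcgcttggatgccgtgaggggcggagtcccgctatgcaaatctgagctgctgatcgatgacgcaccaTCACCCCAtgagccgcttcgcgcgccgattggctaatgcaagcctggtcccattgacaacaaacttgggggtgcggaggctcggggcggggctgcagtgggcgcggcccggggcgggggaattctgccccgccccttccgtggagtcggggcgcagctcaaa
Hmgcs1, chr13:119690101-119690350, plus strand: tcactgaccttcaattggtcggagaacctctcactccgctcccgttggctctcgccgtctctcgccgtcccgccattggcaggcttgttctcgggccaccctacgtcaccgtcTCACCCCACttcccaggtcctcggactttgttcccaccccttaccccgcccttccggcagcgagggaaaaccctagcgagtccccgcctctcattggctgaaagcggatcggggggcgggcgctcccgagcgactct
Msmo1, chr8:64733579-64733828, minus strand: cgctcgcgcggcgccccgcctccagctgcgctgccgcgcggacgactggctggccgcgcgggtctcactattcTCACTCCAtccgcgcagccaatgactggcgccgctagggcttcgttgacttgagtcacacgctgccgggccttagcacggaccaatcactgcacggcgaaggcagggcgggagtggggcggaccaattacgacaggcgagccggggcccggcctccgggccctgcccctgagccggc

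The enzymes that start the pathway were called higher in both cell types. Acat2, which condenses acetyl-CoA, rose in WT preadipocytes by 1.80 on the log2 scale (SE 0.257) and in WT MEFs by 2.10 (SE 0.345), with 38.7 to 64.8 CPM at day 0 and 162 to 174 CPM at day 9 in preadipocytes. Hmgcs1, which makes HMG-CoA, was at 174, 165 and 215 CPM at day 0 and at 131, 156 and 177 CPM at day 3 in WT preadipocytes, groups that overlapped. It was at 459, 527 and 489 CPM at day 6 and at 327, 328 and 325 CPM at day 9, so its highest values came at day 6. Over the course Hmgcs1 gained 0.82 (SE 0.153, adjusted p 9.44e-05) in preadipocytes and 1.67 (SE 0.624, adjusted p 0.0425) in MEFs.

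Within the mevalonate part, the kinases went apart. Pmvk, which phosphorylates mevalonate phosphate, rose by 1.79 in preadipocytes (SE 0.308) and by 1.93 in MEFs (SE 0.4). Mvk, which phosphorylates mevalonate, was called only in MEFs, at 0.59 (SE 0.211, adjusted p 0.0326), with a preadipocyte value of -0.46 (SE 0.157). Mvd, the decarboxylase that follows, was at 24 to 31.5 CPM at day 0 and 25.9 to 29.1 CPM at day 9 in WT preadipocytes, and rose by 0.97 (SE 0.251) in MEFs.

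From isopentenyl to squalene and its epoxide, preadipocyte values were lower at day 9 for all 4 enzymes, and 3 were called. Idi1, the isomerase of isopentenyl pyrophosphate, fell by 0.72 on the log2 scale (SE 0.234). Fdft1, which makes squalene, fell by 0.68 (SE 0.186), from 81.8, 84.1 and 110 CPM to 59.2, 54.9 and 58.0 CPM. Sqle, which forms the epoxide of squalene and is a rate-limiting step, was at 91.1, 85.9 and 105 CPM at day 0, at 81.3, 80.3 and 91.1 CPM at day 3, at 60.7, 57.7 and 59.0 CPM at day 6 and at 41.0, 37.7 and 37.3 CPM at day 9. The libraries of days 6 and 9 lay below all earlier ones without overlap, and Sqle fell by 1.28 (SE 0.15, adjusted p 3.55e-07). Fdps, which makes farnesyl pyrophosphate, had a value of -0.51 (SE 0.231, adjusted p 0.0595).

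In WT MEFs those 4 enzymes had positive course values. Fdft1 was called higher at 0.76 (SE 0.281, adjusted p 0.0405), from 41.0 to 42.7 CPM at day 0 to 65.8 to 74.3 CPM at day 12. Idi1 at 1.02 (SE 0.459), Fdps at 0.98 (SE 0.405) and Sqle at 0.62 (SE 0.301) did not pass. Each SE of the MEF course rests on a spread shared by all 24 MEF libraries, the 4 nearer to another day included. The WT libraries compared differed little within a day, with enzyme sums of 695 to 708 CPM at day 0 and 2087 to 2146 CPM at day 12. The difference between the courses passed for each of the 4: -1.76 for Idi1, -1.50 for Fdps, -1.45 for Fdft1 and -1.91 for Sqle, with adjusted p from 3.4e-05 to 0.0124.

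Past squalene the preadipocyte values divided again. Lss, which closes lanosterol's rings, gained 0.92 (SE 0.186), and Cyp51, which removes a methyl group of lanosterol, gained 1.41 (SE 0.235). Cyp51 was at 165, 157 and 204 CPM at day 0, at 114, 109 and 150 CPM at day 3, at 397, 508 and 388 CPM at day 6 and at 455, 454 and 485 CPM at day 9, with no overlap between the early and the late days. Nsdhl, which takes part in removing further methyl groups, gained 0.99 (SE 0.203), and Dhcr7, whose product is cholesterol, gained 1.75 (SE 0.256) from 16.2 to 22.1 CPM to 57.7 to 65.5 CPM.

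Msmo1 and Hsd17b7, which act in the same demethylation as Nsdhl, went the other way in WT preadipocytes. Msmo1 fell by 1.12 on the log2 scale (SE 0.163), from 93.8, 94.7 and 120 CPM at day 0 to 46.9, 46.4 and 48.4 CPM at day 9. Hsd17b7 fell by 1.06 (SE 0.155), from 79.6, 93.1 and 92.6 CPM to 40.1, 43.9 and 43.1 CPM. Neither gene's groups overlapped. Tm7sf2, a sterol reductase, Ebp, a sterol isomerase, and Sc5d, a desaturase, were not called, at 0.25 (SE 0.21), 0.53 (SE 0.158) and -0.28 (SE 0.174).

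In WT MEFs 7 of the 9 enzymes after squalene's epoxide were called higher, and Cyp51 had the largest course value of any member. Cyp51 was at 64.8, 64.0 and 64.8 CPM at day 0 and at 521, 506 and 500 CPM at day 12, a log2 fold change of 2.98 (SE 0.63, adjusted p 0.00109). Dhcr7 gained 2.18 (SE 0.279), Nsdhl 2.13 (SE 0.409) and Lss 1.89 (SE 0.408), and Tm7sf2, Sc5d and Hsd17b7 gained between 0.95 and 1.07. Msmo1 at 0.57 (SE 0.33) and Ebp at 0.52 (SE 0.205) were not called. The median over the 18 enzymes was 1.00 in WT MEFs and 0.14 in WT preadipocytes.

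Levels between genes were compared per kilobase of exon, counted over all annotated exons of a gene, which can exceed the length of its transcripts. In WT preadipocytes at day 0 the highest were Hmgcs1 at 40.2 ± 5.8 (SD, n = 3) and Cyp51 at 39.6 ± 5.7 CPM per kb, which did not differ beyond their spread. At day 9 Insig1 was highest at 181 ± 10, followed by Cyp51 at 105 ± 3.9 and Hmgcs1 at 71.1 ± 0.28 CPM per kb. In WT MEFs at day 12 Cyp51 stood highest at 115 ± 2.4 CPM per kb, and Insig1 at 84.7 ± 2.0 and Hmgcs1 at 84.6 ± 2.7 did not differ beyond their spread. Tm7sf2 was the lowest member at the last day in both, at 1.95 ± 0.046 and 2.58 ± 0.22 CPM per kb. Its annotated exons overlap those of Vps51 on the same strand.

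Abcg1, a cholesterol exporter, had the largest course value of any member in WT preadipocytes. It was at 9.74, 8.84 and 7.07 CPM at day 0, at 6.17, 11.4 and 7.11 CPM at day 3, at 57.8, 67.4 and 67.2 CPM at day 6 and at 106, 102 and 117 CPM at day 9 in WT libraries. Days 0 and 3 overlapped, and each later day lay above all before it, with a course value of 3.66 (SE 0.273, adjusted p 1.08e-09), a 12.6-fold gain. In WT MEFs Abcg1 gained 1.23 (SE 0.298), and the difference between the courses was 2.41 (SE 0.412, adjusted p 1.8e-05). Abca1, the exporter that loads apolipoproteins, gained 1.60 (SE 0.194) in preadipocytes and 0.63 (SE 0.158) in MEFs.

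The other genes of this group moved less. Soat1, which esterifies cholesterol for storage, fell by 0.79 in WT MEFs (SE 0.178) and had a value of -0.57 in preadipocytes (SE 0.15), at a 1.49-fold change just under the threshold. Npc1, which exports cholesterol from lysosomes, fell by 0.63 in MEFs (SE 0.17) and had a value of 0.04 in preadipocytes (SE 0.186). Without WT day 0 replicate 2, only 1 member was called lower over the course in WT MEFs. Stard4, a carrier of sterol between membranes, and Mylip, a ubiquitin ligase that degrades lipoprotein receptors, were not called in either cell type.

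Laid side by side, 10 members were called higher over the course in both WT cell types: Insig1, Acat2, Hmgcs1, Pmvk, Lss, Cyp51, Nsdhl, Dhcr7, Abca1 and Abcg1. Of all genes tested in both, 11.1% were called higher in both. The same 10 members were called higher in both DKO cell types, beside 13.8% of all genes. Fdft1 and Hsd17b7 were called lower in WT preadipocytes and higher in WT MEFs. Tested directly, the difference between the WT courses (preadipocytes minus MEFs) was called in 17 members, 14 lower and 3 higher, where 16.4% of all genes were called lower and 12.5% higher. DKO libraries also gave 14 and 3, beside 17.9% and 12.5% of all genes, and the 14 were 9 with no filter on low counts and 7 with DKO libraries alone. This comparison was added after seeing the data.

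Between neighbouring days of WT preadipocytes, most members moved between days 3 and 6, the step that spans the change of medium. From day 0 to day 3, Tm7sf2, Acat2 and Abca1 were called higher and Sc5d, Fdft1, Fdps and Mylip lower, beside 10.4% and 12.8% of all genes. From day 3 to day 6, 12 members were called higher and 4 lower, beside 21.3% and 24% of all genes. The 12 were Insig1, Insig2, Hmgcs1, Cyp51, Ebp, Acat2, Dhcr7, Lss, Nsdhl, Pmvk, Abcg1 and Mylip, and the 4 were Scap, Srebf2, Hsd17b7 and Stard4. In the largest of these steps Abcg1 gained 2.97 on the log2 scale (SE 0.266) and Insig1 2.34 (SE 0.236). From day 6 to day 9, Fdft1, Fdps and Abcg1 were called higher and Sqle and Hmgcs1 lower, beside 8.69% and 4.41% of all genes. The counts of higher members in the outer steps rested on few libraries: 1 was called at day 3 without WT day 0 replicate 1 or 2 or WT day 3 replicate 3, and 0 at day 9 without WT day 6 replicate 3.

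DKO preadipocytes followed a similar series of steps. From day 0 to day 3, 4 members were called higher (Insig1, Acat2, Abca1 and Abcg1) and the 4 members that were lower in WT cells were lower here too, beside 12.5% and 15.9% of all genes. Without DKO day 0 replicate 3 the counts were 8 and 2. From day 3 to day 6, 15 were called higher and 3 lower, beside 24.6% and 25.1% of all genes, or 13 and 5 with library size as the only scaling. Sc5d, Npc1 and Abca1 were called higher in this step, at 1.09, 0.96 and 0.65 on the log2 scale, which the WT step did not call. From day 6 to day 9, Fdft1 and Stard4 were called higher and Sqle, Ebp and Hmgcs1 lower, beside 7.49% and 3.48% of all genes, or 1 and 4 with library size as the only scaling. No member was called higher in that step without DKO day 6 replicate 3.

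**Figure D2:**
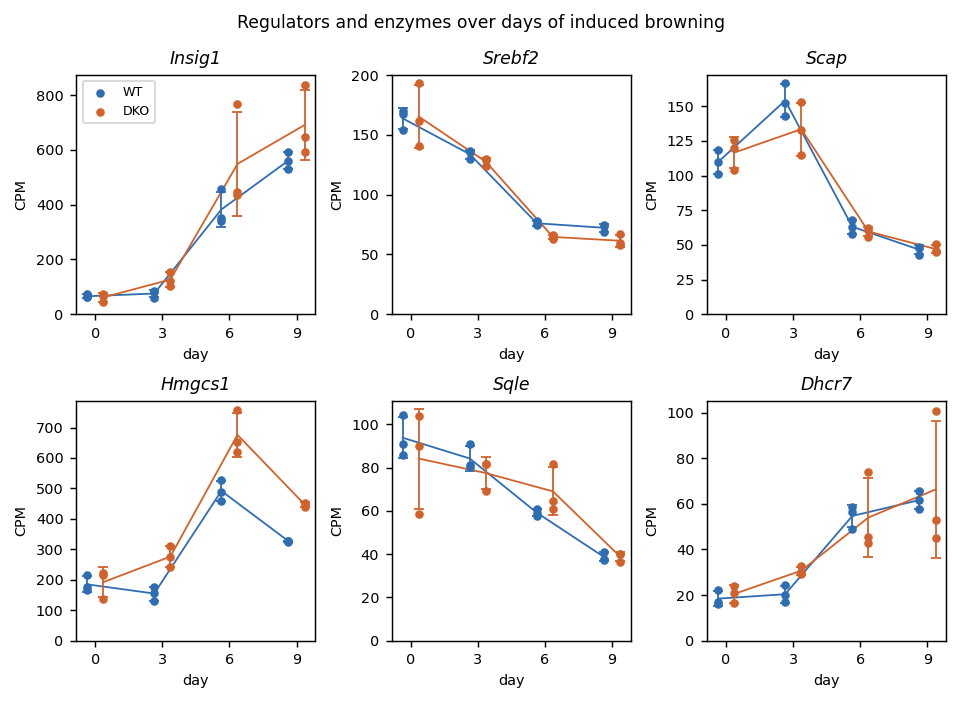
CPM (y axis) by day (x axis) for 3 regulators and 3 enzymes in preadipocytes, with 1 point per library, blue for WT and orange for DKO, lines through the means and bars of 1 SD (n = 3). Insig1 and Dhcr7 are higher at days 6 and 9 than before, Srebf2 and Sqle are lower, Hmgcs1 is highest at day 6 and Scap at day 3.

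In MEFs the first step called fewer members in WT than in DKO cells. From day 0 to day 4 of WT cells, Tm7sf2, Hsd17b7 and Scap were called higher and Mylip lower, beside 14% and 17.7% of all genes, or 6 higher and 1 lower with library size as the only scaling. Tm7sf2 was at 5.64, 5.85 and 4.74 CPM at day 0 and at 15.7, 15.1 and 17.5 CPM at day 4, a gain of 1.57 on the log2 scale (SE 0.15) without overlap. In DKO MEFs, 7 were called higher, namely Tm7sf2, Hsd17b7, Dhcr7, Acat2, Cyp51, Mvd and Abca1, and Mylip lower, beside 12.3% and 16% of all genes. Without DKO day 4 replicate 3, 4 were called higher, leaving out other libraries gave up to 9, and library size as the only scaling gave 12. Without the 4 libraries nearer to another day, Srebf2 and Fdps were called lower beside Mylip in WT MEFs, at -0.67 and -0.97, and 3 members were called higher, beside 14.6% of all genes higher and 19.3% lower. In DKO MEFs 8 were then called higher and 1 lower, beside 12.7% and 16.9% of all genes.

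From day 4 to day 8 no member was called in either genotype by edgeR, beside 0.271% and 0.135% of all genes called higher and lower in WT cells and 0.147% and 0.194% in DKO cells. At an unadjusted p under 0.05 there were 4 members in WT and 3 in DKO cells, beside 20.8% and 16.7% of all genes, and DESeq2 called 1 member lower in WT cells. Without the 4 libraries that stood nearer to another day, 12 members passed as higher and 3 as lower in WT MEFs, beside 11% and 8.89% of all genes. Hmgcs1 then gained 2.35 (SE 0.38) and Cyp51 2.27 (SE 0.35), while Npc1, Soat1 and Scap fell by 0.90, 0.73 and 1.00 on the log2 scale. The DKO step without those libraries called 11 higher and 3 lower, beside 7.89% and 6.14% of all genes, and led with Hmgcs1 at 2.16 and Cyp51 at 2.12.

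From day 8 to day 12, Dhcr7, Sc5d, Fdft1, Pmvk and Abcg1 were called higher in WT MEFs and no member lower, beside 12.9% and 6.66% of all genes. Leaving out WT day 8 replicate 2 left 3 called, and leaving out DKO day 0 replicate 2 or DKO day 8 replicate 3, which enter through the shared spread, gave 8. The same 5 genes and Insig1 were called higher in DKO MEFs and Scap lower, beside 15.3% and 8.65% of all genes. Scap was not called without DKO day 8 replicate 3 or without any 1 of the 3 DKO libraries of day 12. Without the 4 libraries nearer to another day, Fdft1 lost its call in WT MEFs (0.73, adjusted p 0.068) and Lss gained one, with 5 higher and 0 lower beside 13.7% and 6.72% of all genes. In DKO MEFs 6 were then called higher and 0 lower, beside 14.9% and 8.22% of all genes.

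The study asks what loss of HMGN proteins does to fat cell differentiation, so each day was compared between genotypes. In preadipocytes the members parted most at day 6. There 5 were called higher and 1 lower in DKO cells, beside 5.03% and 6.53% of all genes, with a median log2 fold change of 0.33 over the members and -0.01 over all genes tested. The median over the members was 0.21 without DKO replicate 2 and 0.22 with library size as the only scaling. The 5 were the enzymes Lss, Ebp, Cyp51 and Pmvk and the exporter Abcg1, and the 1 was Soat1. Of the 18 enzymes, 16 had a positive value.

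Lss was at 86.2, 101 and 84.1 CPM in WT and at 159, 192 and 164 CPM in DKO preadipocytes of day 6. All DKO libraries lay above all WT libraries, at a log2 fold change of 0.89 (SE 0.0983, adjusted p 0.00257), or 1.86-fold. At day 3 Lss was at 44.9, 45.2 and 50.7 CPM in WT and 44.6, 65.0 and 65.2 CPM in DKO cells, which overlapped. At day 9 it was at 115, 110 and 117 against 140, 170 and 158 CPM, apart again, at 0.42 (SE 0.0803, adjusted p 0.0506).

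Ebp was at 32.9, 40.5 and 31.5 CPM in WT and at 61.0, 63.5 and 59.4 CPM in DKO cells of day 6, without overlap, at 0.78 (SE 0.0982, adjusted p 0.00389). At day 9 it was at 30.7, 31.1 and 32.6 against 36.3, 37.3 and 37.0 CPM, with a value of 0.19 (SE 0.0598). The calls of Lss and Ebp at day 6 held in every alternative setting run.

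Cyp51 was at 397, 508 and 388 CPM in WT and at 713, 996 and 613 CPM in DKO cells of day 6, apart at 0.81 (SE 0.181, adjusted p 0.0189). Pmvk was at 40.7, 56.3 and 38.5 against 66.3, 97.5 and 65.5 CPM, apart at 0.72 (SE 0.194, adjusted p 0.0406). In both genes DKO replicate 2 was the highest library. Cyp51 lost its call without WT replicate 1 (adjusted p 0.0632) or WT replicate 3 (0.0861), and Pmvk without either of those or DKO replicate 2 or 3. Thus without WT replicate 1 only 2 members, and without WT replicate 3 only 3, were called higher.

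Abcg1 was at 57.8, 67.4 and 67.2 CPM in WT and at 89.5, 111 and 102 CPM in DKO cells of day 6, without overlap. Its value of 0.62 (SE 0.0967, adjusted p 0.00611) is 1.53-fold, close to the threshold, and it fell under 1.5-fold without WT replicate 1 or DKO replicate 2. Soat1 was at 71.5, 89.2 and 83.0 CPM in WT and at 63.7, 43.6 and 49.3 CPM in DKO cells, lower by a value of -0.67 (SE 0.151, adjusted p 0.0204). Soat1 lost its call without WT replicate 2 or 3 or DKO replicate 2 or 3, and with a block for the replicate number.

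On the other days these 4 genes were not called. At day 9 Cyp51 was at 455, 454 and 485 CPM in WT and at 645, 706 and 542 CPM in DKO cells, and Pmvk at 67.4, 70.9 and 66.1 against 78.4, 96.2 and 87.7 CPM, both without overlap (adjusted p 0.0743 and 0.0729). Abcg1 was apart already at day 3, at 6.17, 11.4 and 7.11 against 15.6, 18.3 and 12.9 CPM, at 0.93 (SE 0.252, adjusted p 0.213). Soat1 had a negative value at each day. It was at 132, 119 and 113 CPM in WT and at 103, 93.4 and 93.4 CPM in DKO cells of day 0, at -0.33 (SE 0.0818, adjusted p 0.389), and at 71.8, 88.1 and 84.7 against 70.1, 54.7 and 50 CPM at day 9, at -0.52 (SE 0.143, adjusted p 0.0825).

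**Figure D3:**
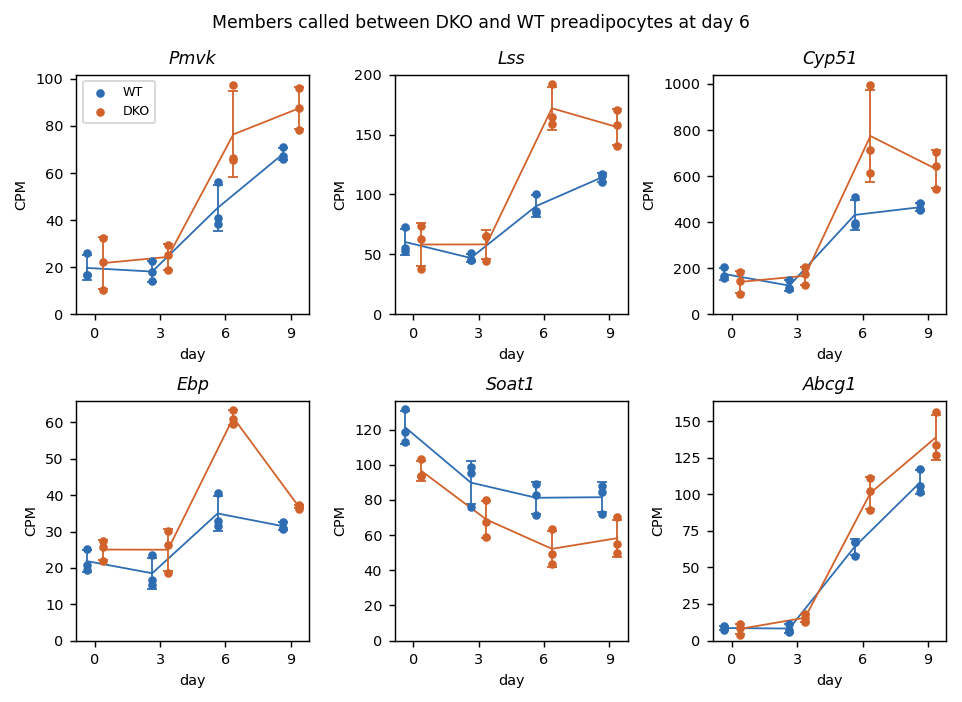
CPM (y axis) by day (x axis) of the 6 members called between genotypes at day 6 in preadipocytes, with 1 point per library, blue for WT and orange for DKO, lines through the means and bars of 1 SD (n = 3). At day 6 the 3 orange points lie above the 3 blue points for Pmvk, Lss, Cyp51, Ebp and Abcg1 and below them for Soat1.

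Some members at day 6 passed at an adjusted p under 0.05 with a smaller fold. At any fold change 8 members were higher and 2 lower, beside 11.6% and 9.96% of all genes. Hmgcs1 at 0.42 (SE 0.103), Sc5d at 0.48 and Insig2 at 0.38 were higher, and Srebf2 at -0.27 was lower. Npc1 was at 57.0, 65.3 and 71.2 CPM in WT and at 118, 73.9 and 137 CPM in DKO cells, and its 0.73 did not pass (adjusted p 0.0673).

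On the other days of preadipocytes no member was called between genotypes. At day 0, 0.0727% of all genes were called higher and 0.145% lower, and 2 members (7.14%) were at an unadjusted p under 0.05, beside 7.86% of all genes. At day 3 the shares called were 0.165% and 0.172%, and 7 members (25%) were at that unadjusted p, beside 12.2% of all genes. Hmgcs1 there was at 131, 156 and 177 CPM in WT and 241, 312 and 274 CPM in DKO cells, apart at 0.85 (SE 0.143), with an adjusted p of 0.0839. DESeq2 called 4 members higher at day 3, and a fit with a block for the replicate number called 3.

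At day 9 of preadipocytes the shares of all genes were 0.469% and 0.776% called higher and lower, and 15 members (53.6%) were at an unadjusted p under 0.05, beside 27.1% of all genes. At any fold change 2 members passed, Hmgcs1 at 0.42 and Sc5d at 0.34, both higher, beside 1.17% of all genes higher and 0.939% lower. Of the 18 enzymes 17 had a positive value, and the median over the members was 0.18 beside -0.00176 over all genes. That median was 0.0835 with library size as the only scaling and 0.104 without DKO replicate 2.

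Whether the gap between genotypes depended on the day was tested with the interaction terms. No member passed in preadipocytes, where 2.08% of all genes did, and 9 members were at an unadjusted p under 0.05, or 32.1% of them, beside 18.3% of all genes. The lowest adjusted p among members was 0.110, of Insig2. In MEFs no member passed either, where 0.0177% of all genes did, and 0 members beside 9.24% of all genes were at an unadjusted p under 0.05. With a block for the replicate number over days, Lss passed in preadipocytes (adjusted p 0.0383), beside 2.96% of all genes. Apart from Lss in that fit, a gap that depended on the day was not shown for any member.

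In MEFs the genotypes stood apart at day 12, by small amounts. Abcg1 was at 44.6, 47.8 and 45.2 CPM in WT and at 67.9, 98.3 and 69.3 CPM in DKO cells, without overlap, and was the only member called, at 0.75 (SE 0.167, adjusted p 0.0233). Of all genes 3.92% were called higher and 4.05% lower. DKO replicate 2 lay well above its group, and without it the value was 0.55, under the fold threshold. Without any 1 of the 3 WT libraries the adjusted p of Abcg1 was 0.0592 to 0.0718.

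At any fold change 14 members were higher and 2 lower in DKO MEFs of day 12, beside 17.3% and 15.8% of all genes. The WT libraries of this day differed little from each other, and the p-values here rest on that small spread. Insig1 was at 267, 255 and 264 CPM in WT and at 381, 401 and 389 CPM in DKO cells, apart at 0.55 (SE 0.0403, adjusted p 5.31e-08). Pmvk gained 0.57 (SE 0.0474) and Hmgcs1 0.51 (SE 0.04), the latter from 403, 383 and 380 CPM to 562, 559 and 570 CPM. Srebf2 at -0.14 and Scap at -0.19 were the 2 lower ones. All 18 enzymes had a positive value. The median over the members was 0.17 beside 0.00148 over all genes.

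The earlier days of MEFs gave no call among members. At day 0 the shares of all genes were 0.0383% and 0.0638%, at day 4 0.0194% and 0.0711%, and at day 8 0.0132% and 0.0463%, called higher and lower. The members at an unadjusted p under 0.05 numbered 0, 2 and 2, or 0%, 7.14% and 7.14% of them, beside 9.28%, 5.91% and 8.57% of all genes, and DESeq2 called 1 higher at day 8. Abcg1 was at 28.7, 12.6 and 15.1 CPM in WT and at 39.1, 26.8 and 46.1 CPM in DKO MEFs of day 4, which overlapped, and at 18.0, 25.2 and 17.7 against 37.8, 32.4 and 37.7 CPM at day 8, which did not. Without the 4 libraries nearer to another day, Abcg1 was called higher at both, at 1.25 (adjusted p 0.0494) and 0.96 (adjusted p 0.0022), as the only member. The shares of all genes were then 0.76% and 0.36% at day 4 and 2.27% and 1.73% at day 8.

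**Figure D4:**
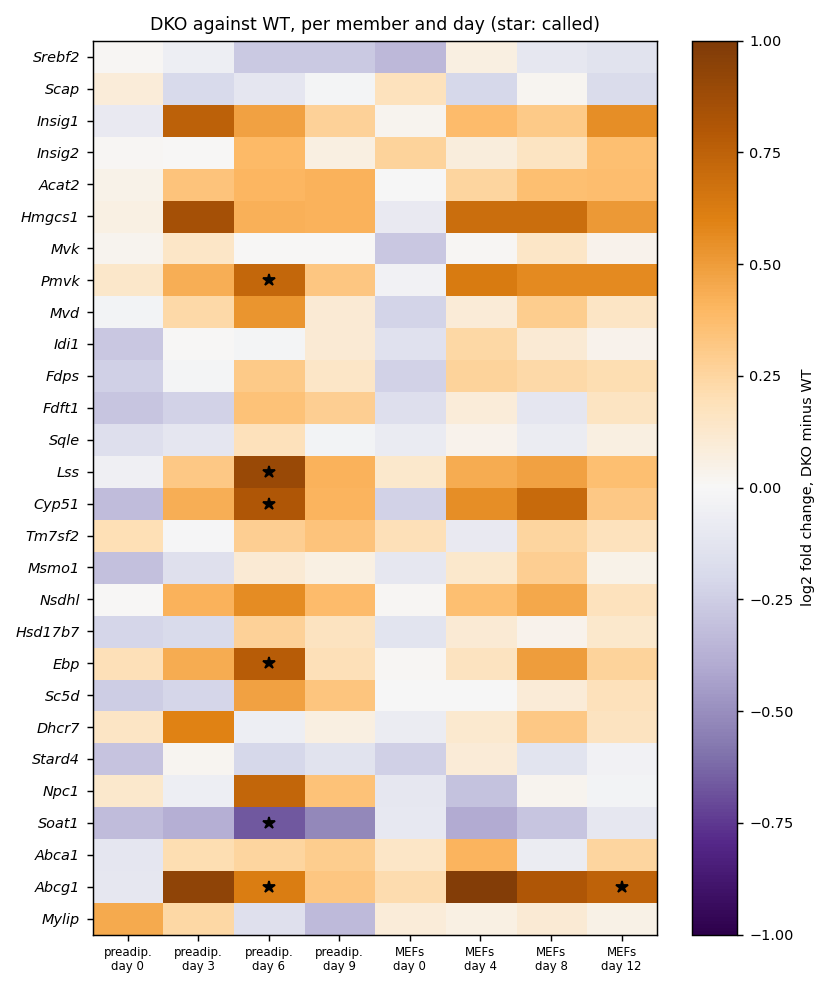
Log2 fold change of DKO against WT (colour, orange for higher and purple for lower in DKO) for each of the 28 members (rows) at each day of preadipocytes and MEFs (columns), with a star on each called gene. Stars stand on 6 members at day 6 of preadipocytes and on Abcg1 at day 12 of MEFs, and the column of MEFs at day 12 is above 0 for all 18 enzymes.

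The summed level of the 18 enzymes gives the same days in CPM. At day 6 of preadipocytes WT cells had 1926 ± 183 and DKO cells 2816 ± 514, and at day 9 they had 1814 ± 7.08 and 2341 ± 198 (SD, n = 3), without overlap. The genotypes overlapped at days 0 and 3, at 1367 ± 205 and 1230 ± 348, and at 1096 ± 105 and 1284 ± 168. In MEFs at day 12 it was 2107 ± 33.7 and 2637 ± 72.3, apart.

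Other genes of sterol handling were counted over a list of 37, chosen by name, of which 35 to 37 were tested. At day 6 of preadipocytes 5 were called higher in DKO cells and 1 lower, beside 5.03% and 6.53% of all genes. Aacs, which makes acetoacetyl-CoA in the cytosol for sterol synthesis, rose 2.17-fold, from 129, 172 and 138 CPM to 301, 341 and 330 CPM. Gramd1b, a sterol carrier, rose by 0.87 and Scarb1, the receptor of high-density lipoprotein, by 0.61 on the log2 scale. Soat2, the relative of Soat1, and Cyp27a1, a sterol hydroxylase, were also higher, Soat2 at no more than 1.32 CPM. Cyp7b1, an oxysterol hydroxylase, was at 42.7, 21.6 and 31.8 CPM in WT and 12.4, 7.53 and 6.52 CPM in DKO cells, lower at -1.90 (SE 0.347).

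At day 12 of MEFs Scarb1, Gramd1b and Vldlr, a lipoprotein receptor, were called higher and Cyp7b1 lower. Of the other days only day 3 of preadipocytes gave a call in this list, Apoe, the apolipoprotein that carries exported cholesterol. Apoe was at 30.0, 25.3 and 31.9 CPM in WT and 588, 912 and 828 CPM in DKO cells, a 26.9-fold difference (adjusted p 0.000909), and it was called at no day in MEFs. Over the whole course 13 of the 37 were called higher and 5 lower in WT preadipocytes, beside 25.2% and 26.5% of all genes, and 8 higher and 3 lower in WT MEFs, beside 13.4% and 10.6%. Nr1h3, which encodes a liver X receptor, and Srebf1, the relative of Srebf2 that favours fatty acid genes, were among the higher ones in both.

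Markers of cell types also differed between days and genotypes. In preadipocytes the summed CPM of 10 adipocyte markers was 38.8 to 76.2 at day 0, then at day 6 15329 to 19647 for WT and 22498 to 28310 for DKO, and at day 9 21108 to 21645 and 26360 to 32656. At day 3 they were 415 to 1473 for WT and 2329 to 3336 for DKO. Adipocyte markers and the enzymes Lss, Ebp, Cyp51 and Pmvk were both higher in DKO cells of day 6. At days 3 and 9 the adipocyte sums were also apart between genotypes, and no member was called. The summed level of the synthesis enzymes was still apart at day 9. It was 1809 to 1822 CPM in WT and 2221 to 2570 CPM in DKO cells. At day 3 the enzyme sums overlapped, at 1016 to 1215 CPM in WT and 1090 to 1389 CPM in DKO cells. A link between adipocyte markers and the enzymes was not tested. In MEFs of day 12 the adipocyte sums were 11877 to 12203 in WT and 18923 to 20510 in DKO cells. Brown-like markers at day 6 summed to 221 to 329 in WT and 651 to 822 CPM in DKO preadipocytes, and the 9 fibroblast or preadipocyte markers to 9435 to 11262 and 2879 to 4483 CPM. In MEFs of day 12 brown-like markers summed to 158 to 169 in WT and 352 to 362 CPM in DKO cells. The fibroblast or preadipocyte markers there summed to 14687 to 15258 and 8689 to 9388 CPM.

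Macrophage markers were also present. All 9 were detected, and their sum in preadipocytes was 22.0 to 123 CPM at days 0 and 3, then at day 6 3518 to 5977 for WT and 1090 to 3326 for DKO, and at day 9 1899 to 3527 and 740 to 2078 CPM. The sums did not overlap between genotypes at day 6 and overlapped at day 9. Some members, Soat1 and Abca1 among them, are also expressed in macrophages. Of the members called at day 6, Soat1 was lower in DKO cells, as these markers were, and Lss, Ebp, Cyp51, Pmvk and Abcg1 were higher. From day 3 to day 6, as the macrophage sum rose, Abcg1 was among the members called higher in both genotypes. At days 0, 3 and 9 Soat1 was not called between genotypes. In MEFs the macrophage sum was 849 to 3295 CPM over all libraries, and at day 12 3062 to 3123 in WT and 2302 to 2610 CPM in DKO cells. Among other cell types in preadipocytes, the 7 skeletal muscle markers summed to 97.5 to 221 CPM at day 0, with Myod1, Myog, Ckm and Myh3 at no more than 3 counts in every library. The 4 neural or glial markers summed to at most 138 CPM, the 6 endothelial markers to at most 35.1 CPM and the 5 epithelial markers to at most 11.9 CPM. The part of these cells in the members' values was not tested.

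**Figure D5:**
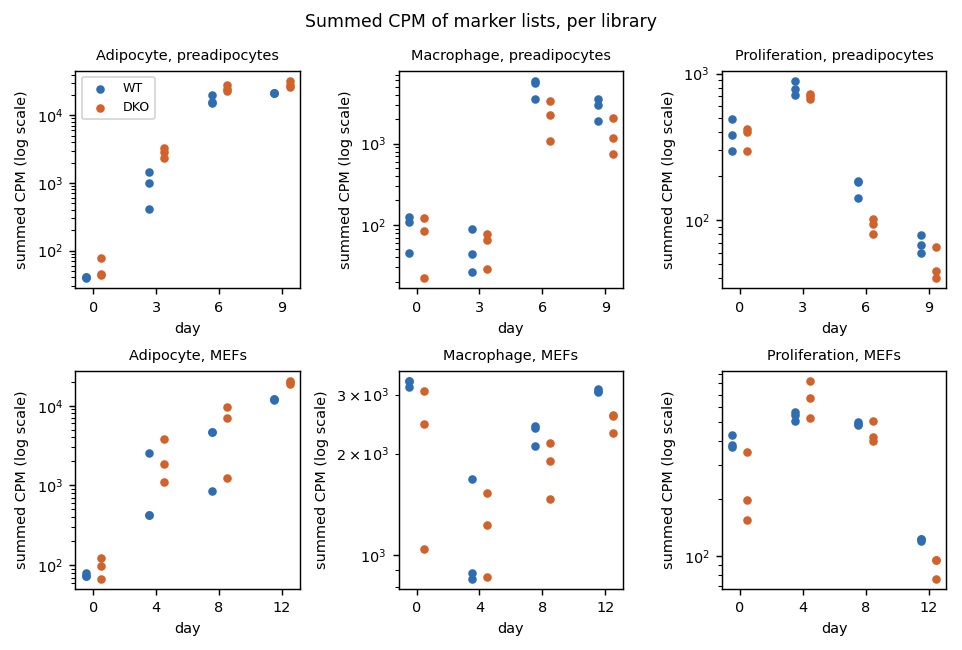
Summed CPM (y axis, log scale) of adipocyte, macrophage and proliferation marker lists by day (x axis) in preadipocytes (top) and MEFs (bottom), with 1 point per library, blue for WT and orange for DKO. At day 6 of preadipocytes the DKO points lie above the WT points for adipocyte markers (22498 to 28310 against 15329 to 19647) and below them for macrophage markers (1090 to 3326 against 3518 to 5977).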

How the data were processed

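RNA-seq was made from 24 libraries of preadipocytes and 24 of MEFs. The authors trimmed 50 bp paired reads with Cutadapt 1.18, aligned them with STAR 2.7.0f to mm10 and estimated gene counts with RSEM 1.3.0, per the labels and the study's methods. The deposited values are RSEM expected counts, not normalized, and they were rounded to whole numbers here. All 55450 gene IDs matched GENCODE M21. The labels give polyA RNA and the methods a total RNA kit, which can change the share of unspliced and noncoding reads.

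Genes were filtered with filterByExpr, scaled by TMM and tested with edgeR 4.0.16 (R 4.3.3), robust quasi-likelihood. Genotypes were compared within the 6 libraries of a day, and days within the 24 libraries of a cell type. The whole course and its difference between cell types were added after seeing the data. CPM used TMM-scaled library sizes, and levels between genes were divided by the length in kb of all annotated exons of a gene. Genes were called as the report states. Alternatives were DESeq2 1.42.0, limma-voom (limma 3.58.1), library size only, no filter, no fold threshold, 1 fit over all days, libraries of 1 genotype, a replicate block and leaving out each library. No 2 libraries of a group agreed within counting noise. The variance between 2 libraries of a group was 6.934 to 78.13 times that of counting in preadipocytes and 2.159 to 168.2 times in MEFs. In WT MEFs of day 12 it was 2.178 to 3.575 times. The members and gene lists, and the rule to name all 28 members and to print library values for called ones, were chosen with earlier results of these data known. Library totals of 18962483 to 36006696 counts gave each member at least 89 counts, and intervals cover only the spread between libraries. The scripts were tested on simulated data.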

Additional observations from a re-analysis of the deposited data

Results flagged for a closer look

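The course of 17 members differed between WT preadipocytes (day 9 against day 0) and WT MEFs (day 12 against day 0), by a test of the difference in 1 fit over all libraries, added after seeing the data. Values are the preadipocyte log2 fold change minus the MEF log2 fold change. Among regulators, Srebf2 differed by -1.27 and Scap by -1.19. Enzymes up to the epoxide of squalene differed by -1.06 (Mvk), -0.96 (Mvd), -1.76 (Idi1), -1.50 (Fdps), -1.45 (Fdft1) and -1.91 (Sqle). The later enzymes differed by -0.83 (Tm7sf2), -1.71 (Msmo1), -1.15 (Nsdhl), -2.02 (Hsd17b7) and -1.25 (Sc5d). Stard4 differed by -0.97. The positive differences were those of Npc1 at 0.65, Abca1 at 0.96 and Abcg1 at 2.41. Nsdhl was called higher over the course in both cell types, so its difference is one of size, whereas Fdft1 and Hsd17b7 were called in opposite directions. Sampling days, days in medium, the source of the cells and the change in macrophage markers differ between the courses and cannot be told apart. The summed macrophage markers of WT preadipocytes were 45.7 to 123 CPM at day 0 and 1899 to 3527 CPM at day 9. Those of WT MEFs were 3158 to 3295 CPM at day 0 and 3062 to 3123 CPM at day 12.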

How the results depend on the processing

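Counts of members depended on settings as follows, with the main count first; the cause was not tested. With no fold threshold, lower members in WT preadipocytes went from 4 to 7 (day 3 against 0), 4 to 7 (day 6 against 3) and 2 to 4 (day 9 against 6). DKO preadipocytes went from 4 to 7 and 3 to 6 in the outer steps. DKO against WT went from 5 to 8 higher and 1 to 2 lower at day 6, 0 to 2 higher at day 9, and 1 to 14 higher and 0 to 2 lower at day 12 of MEFs, and the lower counts of MEFs at day 4 (both genotypes) and of the DKO MEF course from 1 to 2. With library size only, DKO preadipocytes went from 3 to 5 lower (day 6) and 2 to 1 higher (day 9), WT MEFs from 3 to 6 higher (day 4) and 0 to 1 lower (day 8), DKO MEFs from 7 to 12 higher (day 4) and 1 to 3 lower over the course. With no filter, WT preadipocytes of day 9 went from 3 to 1 higher, DKO against WT at day 3 from 0 to 1, WT MEFs of day 12 from 5 to 3, the DKO MEF course from 1 to 2 lower, DKO against WT MEFs of day 12 from 1 to 0 and the DKO difference between courses from 14 to 9 lower. With DESeq2, DKO against WT went from 0 to 4 higher at day 3 of preadipocytes and 0 to 1 at day 8 of MEFs, and WT MEFs from 3 to 5 higher at day 4 and 0 to 1 lower at day 8. With libraries of 1 genotype, DKO preadipocytes of day 9 went from 2 to 1 higher, WT MEFs of day 4 from 3 to 5 and the DKO difference between courses from 14 to 7 lower. With 1 fit over all days, DKO against WT went from 0 to 1 higher at day 3 and from 1 to 0 at day 12 of MEFs.

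Without the 4 MEF libraries nearer to another day, WT MEFs went from 1 to 3 lower at day 4 and from 0 to 12 higher and 0 to 3 lower at day 8, DKO MEFs from 0 to 11 and 0 to 3 at day 8 and from 1 to 0 lower at day 12, and DKO against WT from 0 to 1 higher at days 4 and 8. Same-numbered WT and DKO libraries correlated at -0.719 to 0.638 within a day, so the numbers were not taken as pairs. Across days of 1 genotype, same-numbered preadipocyte libraries correlated at 0.429 to 0.579 (DKO days 0 and 3), 0.39 to 0.49 (DKO days 6 and 9) and 0.145 to 0.482 (WT days 6 and 9), and other pairs of days did not all exceed 0.1. The replicate block moved DKO against WT from 0 to 3 higher at day 3 and from 1 to 0 lower at day 6 of preadipocytes, and the block by number over days moved the preadipocyte interaction from 0 to 1. No other count of called members moved by over 1.5 times under the block, the steps between days included.

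Leaving out each library gave these ranges of called members. In WT preadipocytes they were 1 to 4 higher at day 3, and 0 to 3 higher and 1 to 2 lower at day 9. In DKO preadipocytes they were 4 to 8 higher and 2 to 4 lower at day 3 and 0 to 3 higher at day 9. DKO against WT gave 2 to 6 higher and 0 to 1 lower at day 6, and 0 to 2 higher at day 12 of MEFs. In WT MEFs they were 2 to 5 higher and 1 to 2 lower at day 4, 0 to 1 higher and 0 to 2 lower at day 8, 3 to 8 higher at day 12, and 1 to 2 lower over the course. In DKO MEFs they were 4 to 9 higher and 1 to 2 lower at day 4, 0 to 2 higher at day 8, 0 to 1 lower at day 12 and 1 to 2 lower over the course. With 3 libraries a group, small changes at days of wide spread could not be resolved.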
